A study of Homo sapiens with 6 samples.

Results

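Fc receptors bind the constant region of antibodies and so tie antibody to the cells that act on it. The genes described are 7 Fc receptor genes of myeloid cells, picked by symbol from a table of 31853 genes: FCGR1A, FCGR2A, FCGR2B, FCGR3A, FCER1G, FCAR and FCGRT. The table used here has rows for 6 of them, and all 6 passed the filter on low counts, so none of these was too low to test. FCGR3A had no row under its symbol or its Ensembl gene number and was not analysed here. In all, 18138 genes were tested.

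The treated cells were Mon-Mac-6, an established human line of monocytic leukaemia, treated for 48 h with 500 nM WD6305, which the series title names as a METTL3 PROTAC (a degrader of the enzyme that writes m6A on messenger RNA). The controls were the same line given DMSO, the solvent, for 48 h. Poly(A) RNA was sequenced from 3 libraries per group. Whether each library stands for a culture of its own is not stated, so p-values measure only the spread between these libraries, which may be technical. It is a single line, so nothing here speaks of other monocytes.

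Activating Fc receptors signal through an immunoreceptor tyrosine-based activation motif (ITAM), whose tyrosines are phosphorylated by Src-family kinases and then dock the kinase SYK. FCER1G encodes the gamma chain, a small adaptor that carries an ITAM for receptors with none of their own, among them the high-affinity IgG receptor (FCGR1A) and the IgA receptor (FCAR). FCGR2A, a low-affinity IgG receptor, carries an ITAM in its own tail. FCGR2B carries an inhibitory motif (ITIM), which docks phosphatases and damps signalling. FCGRT encodes the heavy chain of FcRn, which pairs with beta-2-microglobulin (B2M) to rescue IgG and albumin from lysosomes.

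The coding stretches of these signalling motifs are shown for FCER1G, FCGR2A and FCGR2B, whether or not the gene moved. They were read from GENCODE release 29 transcripts (GRCh38) of the longest coding transcript per gene, on chromosome 1, and capitals mark the tyrosine codons.
FCER1G ITAM: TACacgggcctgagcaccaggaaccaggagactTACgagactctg
FCGR2A ITAM: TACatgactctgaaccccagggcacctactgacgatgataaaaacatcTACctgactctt
FCGR2B ITIM: atcaccTATtcacttctc
The FCER1G stretch spans codons 65 to 79 of 86, the FCGR2A stretch codons 288 to 307 of 317 and the FCGR2B stretch codons 290 to 295 of 310. The ITAM pattern was searched as a pair of tyrosines, each followed at the third position by leucine or isoleucine, and it matched in no other of the 7 genes. The ITIM pattern is short and also matched elsewhere in FCGR1A, FCER1G and FCGRT, so a match alone is a description of letters.

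The total of the deposited counts was 64525948 to 71155346 per library. Low counts pile up at 4, with 1071 to 1176 genes per library at that count against 357 to 380 at a count of 5, and what a count is worth in read pairs is not given. Of 10 monocyte and macrophage markers, 9 had a row and all 9 were detected. Their summed level was 5244 to 6025 FPKM (fragments per unit of gene length, scaled to depth by the authors) in WD6305 libraries and 3054 to 3303 FPKM in DMSO libraries. Most of that sum was lysozyme (LYZ), at 4967 to 5752 FPKM with WD6305 and 2891 to 3139 FPKM with DMSO. Of these markers 6 passed as higher and 2, CD163 and CD14, as lower. Of 6 neutrophil markers 4 had a row: MMP8 and CAMP were at a count of 0 in every library, FCGR3B had 4 counts in 1 DMSO library, and CXCR2 rose to 7.01 to 7.82 FPKM with WD6305, against 5.04 to 5.31 FPKM with DMSO (log2 fold change 0.56, edgeR adjusted p = 0.00117). Of 6 natural killer cell markers 5 had a row. KLRD1 was at a count of 0 in every library, NCAM1, NCR1 and GNLY were at 0 with WD6305 and at 0 to 13 counts with DMSO, and NKG7 stood at 138 to 170 FPKM with WD6305 and 156 to 184 FPKM with DMSO. Keratinocyte markers summed to 3.31, 56.7 and 53.7 FPKM in WD6305 libraries 1, 2 and 3 and to 69.8, 62.0 and 5.09 FPKM in DMSO libraries 1, 2 and 3, so WD6305 1 and DMSO 3 stood apart from the other 4. What part these marker levels have in the results below was not tested. In bulk RNA, fewer cells of a kind and less RNA per cell cannot be told apart.

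Under WD6305 the gamma chain FCER1G rose 1.62-fold and the IgA receptor FCAR 1.58-fold. The inhibitory receptor FCGR2B fell 2.75-fold, at a very low level in both groups, and that call was lost when any of 3 single libraries was left out. FCGR1A, FCGR2A and FCGRT did not pass the test. So 2 of the 6 tested genes were called higher, where 12.2% of all tested genes were, and 1 was called lower, where 11.2% of all were (edgeR quasi-likelihood test, Benjamini-Hochberg adjusted p under 0.05). In either direction the calls took 23.4% of all genes. The median log2 fold change of the 6 was 0.00, as it was over all tested genes. The groups did not overlap in FCER1G, FCAR and FCGR2B, and over all genes this held for 40.8%.

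**Figure D1:**
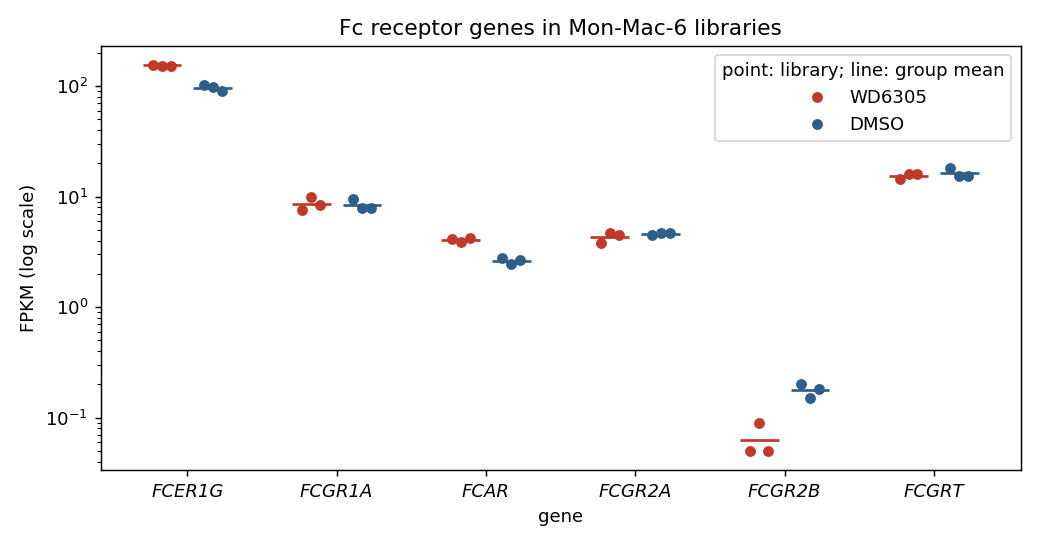
FPKM on a log axis for the 6 Fc receptor genes with a row, WD6305 libraries in red and DMSO libraries in blue, a point per library and a line at each mean. FCER1G lies far above the others, FCGR2B far below, and the groups are apart in FCER1G, FCAR and FCGR2B.

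On the per-length scale the order of the genes under WD6305 was FCER1G at 153 ± 0.782 FPKM, FCGRT at 15.4 ± 0.838, FCGR1A at 8.59 ± 1.15, FCGR2A at 4.31 ± 0.437, FCAR at 4.08 ± 0.178 and FCGR2B at 0.0633 ± 0.0231 (mean ± SD, n = 3). Under DMSO it was FCER1G at 96.4 ± 6.26 FPKM, FCGRT at 16.3 ± 1.66, FCGR1A at 8.38 ± 0.907, FCGR2A at 4.59 ± 0.113, FCAR at 2.62 ± 0.158 and FCGR2B at 0.177 ± 0.0252. The order was the same in both groups. Under WD6305, FCGR2A and FCAR lay within their spread of each other, while the libraries of these genes did not overlap under DMSO.

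FCER1G, the adaptor, lies on the plus strand of chromosome 1 from 161215234 to 161220699 (GRCh38, as the table gives it). Its level was 159, 156 and 158 CPM in WD6305 libraries 1, 2 and 3 and 104, 99.4 and 89.3 CPM in DMSO libraries 1, 2 and 3, where CPM is the count scaled to a common library size after TMM normalization. All 3 WD6305 libraries lay above all 3 DMSO libraries, and the WD6305 libraries lay closer together. The log2 fold change was 0.69 (SE 0.06, 95% interval 0.55 to 0.83), or 1.62-fold higher, with adjusted p = 0.000152 in edgeR.

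TOMM40L, a mitochondrial import gene that starts 5240 bases after FCER1G, moved the other way, with a log2 fold change of -0.44 (edgeR adjusted p = 0.00225). It was named by position after its value was seen. No other gene in the table overlaps FCER1G, and none of its 150-base stretches occurs in a GENCODE transcript of another gene.

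FCAR encodes CD89, which binds IgA and needs the gamma chain to signal. It lies on the plus strand of chromosome 19 from 54874235 to 54891420. Its level was 14.7, 13.8 and 15.2 CPM in WD6305 libraries 1, 2 and 3 and 9.78, 8.62 and 9.15 CPM in DMSO libraries 1, 2 and 3. Every WD6305 library was above every DMSO library. The log2 fold change was 0.66 (SE 0.09, 95% interval 0.45 to 0.87), or 1.58-fold higher, with adjusted p = 0.00127 in edgeR. No 150-base stretch of FCAR is shared with another gene.

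FCGR1A encodes CD64, the high-affinity IgG receptor, which also signals through the gamma chain. It lies on the plus strand of chromosome 1 from 149782671 to 149791675. Its level was 17.4, 22.5 and 19.5 CPM in WD6305 libraries 1, 2 and 3 and 21.6, 17.9 and 17.5 CPM in DMSO libraries 1, 2 and 3. The groups overlapped, with WD6305 2 the highest library and WD6305 1 the lowest. The log2 fold change was 0.06 (SE 0.12), with a 95% interval of -0.21 to 0.33 and adjusted p = 0.780 in edgeR, so the interval still allows modest change either way.

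FCGR1A has copies that can take its reads. Of its 150-base stretches, 31.5% also occur in transcripts of other genes: 20.3% in ENSG00000233030 on the opposite strand of the same locus (at most 0.14 FPKM in any library), 7.48% in FCGR1CP, 6.65% in ENSG00000233029, 5.96% in ENSG00000234571 and 5.17% in FCGR1BP, named FCGR1B in GENCODE. A stretch can occur in several of these. FCGR1BP had 4.63 ± 0.690 CPM with WD6305 and 5.59 ± 0.222 CPM with DMSO, or -0.27 on the log2 scale (edgeR adjusted p = 0.221, not passed). FCGR1CP had 3.29 ± 0.162 CPM with WD6305 and 4.15 ± 0.571 CPM with DMSO, or -0.34 (edgeR adjusted p = 0.171). With the 3 genes summed the counts were 1588, 2157 and 1811 with WD6305 and 2241, 1893 and 1819 with DMSO, and the log2 fold change turned to -0.05 (SE 0.11, edgeR adjusted p = 0.777).

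FCGR2A, the low-affinity IgG receptor with its own ITAM, lies on the plus strand of chromosome 1 from 161505430 to 161524013. Its level was 22.3, 26.8 and 26.1 CPM in WD6305 libraries 1, 2 and 3 and 25.8, 26.7 and 26.2 CPM in DMSO libraries 1, 2 and 3. WD6305 1 was the only low library, and the other 5 lay together. The log2 fold change was -0.06 (SE 0.09, 95% interval -0.26 to 0.13, adjusted p = 0.653 in edgeR). Only 3.54% of its 150-base stretches occur in other genes.

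FCGR2B, the inhibitory IgG receptor, lies on the plus strand of chromosome 1 from 161663143 to 161678654. Its deposited counts were 22, 45 and 24 in WD6305 libraries 1, 2 and 3 and 103, 71 and 85 in DMSO libraries 1, 2 and 3, or 0.342, 0.654 and 0.359 CPM against 1.45, 1.06 and 1.24 CPM. All 3 WD6305 libraries were below all 3 DMSO libraries, and WD6305 2 was the nearest to them. The log2 fold change was -1.46 (SE 0.36, 95% interval -2.27 to -0.65), or 2.75-fold lower, with adjusted p = 0.0179 in edgeR. The call was lost without WD6305 1 (adjusted p = 0.0572), WD6305 3 (0.0679) or DMSO 1 (0.0663), and in the 4 libraries with the higher keratinocyte marker sums (0.0766, all edgeR), at log2 fold changes of -1.34 to -1.30. Over the alternatives that gave a value its adjusted p was 0.0045 to 0.0766.

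FCGR2B shares 23.6% of its 150-base stretches with FCGR2C, a neighbouring gene that arose from FCGR2B and FCGR2A. FCGR2C had counts of 33, 18 and 18 with WD6305 and 28, 28 and 47 with DMSO, with overlapping groups and a log2 fold change of -0.52 (SE 0.48, edgeR adjusted p = 0.5). The summed counts of FCGR2B and FCGR2C were 55, 63 and 42 with WD6305 and 131, 99 and 132 with DMSO, again without overlap. Their log2 fold change was -1.13 (SE 0.26, edgeR adjusted p = 0.0147). FCGR3B, a copy of FCGR3A found on neutrophils, was counted at 0 in every WD6305 library and at 0, 0 and 4 in the DMSO libraries, and was too low to test.

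FCGRT, the FcRn heavy chain, lies on the plus strand of chromosome 19 from 49506816 to 49526428. Its level was 62.8, 68.8 and 69.0 CPM in WD6305 libraries 1, 2 and 3 and 78.7, 65.4 and 64.9 CPM in DMSO libraries 1, 2 and 3. DMSO 1 was the highest library, and the other 5 overlapped. The log2 fold change was -0.06 (SE 0.08, 95% interval -0.25 to 0.13, adjusted p = 0.678 in edgeR). RCN3, which encodes a calcium-binding protein of the endoplasmic reticulum and starts 1575 bases after FCGRT, fell by 0.50 on the log2 scale (edgeR adjusted p = 0.0155) and was named by position after its value was seen. That call was lost without WD6305 1, WD6305 3 or DMSO 1 and in the 4 libraries (up to edgeR adjusted p = 0.058). B2M, its light chain and that of class I antigen-presenting molecules, had 2070 ± 91.1 CPM with WD6305 and 1624 ± 99.7 CPM with DMSO (n = 3 each), a rise of 0.35 on the log2 scale (SE 0.06, edgeR adjusted p = 0.00405).

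**Figure D2:**
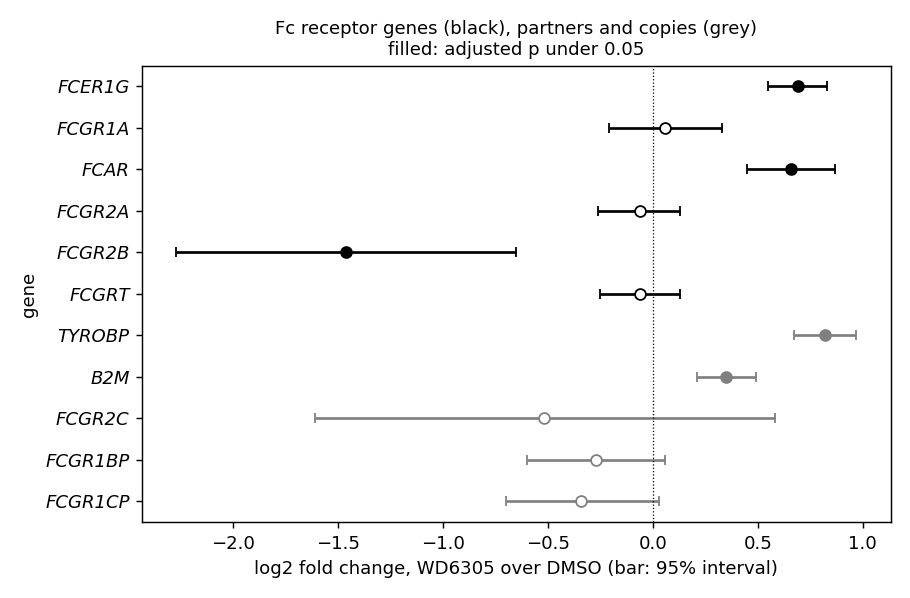
Log2 fold change, WD6305 over DMSO, with its 95% interval for the 6 Fc receptor genes in black and their partners and copies in grey, filled where the adjusted p was under 0.05. FCER1G (0.69) and FCAR (0.66) sit together above 0 with narrow intervals, while the interval of FCGR2B (-2.27 to -0.65) is wide.

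Ratios within a library show the balance of paired genes and do not depend on library scaling. The CPM ratio of FCGR2A to FCGR2B was 65.1, 41.0 and 72.6 in WD6305 libraries 1, 2 and 3 and 17.8, 25.1 and 21.2 in DMSO libraries 1, 2 and 3. Every WD6305 library had a higher ratio than every DMSO library, with WD6305 2 the nearest to them. The log2 ratio was 5.86 ± 0.44 with WD6305 and 4.4 ± 0.25 with DMSO (SD, n = 3 each), a difference of 1.45. FCGR2A changed little (log2 fold change -0.06), so this difference mostly restates that of FCGR2B (-1.46), at 22 to 103 counts per library. By exact permutation of the group names (two-sided) p was 0.1, and a design with 3 libraries a group cannot go lower.

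FCER1G was compared with TYROBP, the other main ITAM adaptor of myeloid cells, which rose too (70.3 ± 3.20 CPM with WD6305 and 39.7 ± 1.98 CPM with DMSO, log2 fold change 0.82, edgeR adjusted p = 0.000104). The CPM ratio of FCER1G to TYROBP was 2.33, 2.11 and 2.31 with WD6305 and 2.51, 2.50 and 2.37 with DMSO, so the ratio was slightly lower in the WD6305 libraries. The difference in log2 ratio was -0.13 (exact permutation p = 0.1, n = 3 each). The ratio of FCGRT to B2M was 0.0319, 0.0328 and 0.0322 with WD6305 and 0.0453, 0.0416 and 0.0415 with DMSO, lower in every WD6305 library. The difference in log2 ratio was -0.41 (exact permutation p = 0.1, n = 3 each). These 3 ratios were the ones compared, and none could reach a p under 0.05.

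The level of the adaptor was also set beside receptor chains that use it, per length. The FPKM of FCER1G over the summed FPKM of FCGR1A and FCAR was 13.2, 11.1 and 12.1 in WD6305 libraries 1, 2 and 3 and 8.36, 9.47 and 8.54 in DMSO libraries 1, 2 and 3. The FPKM of FCAR over that of FCGR1A was 0.547, 0.396 and 0.503 with WD6305 and 0.293, 0.311 and 0.339 with DMSO. Both quantities were higher in every WD6305 library. With LILRA2, another receptor that can signal through the gamma chain, added to FCGR1A and FCAR, the first became 6.27, 5.68 and 5.82 with WD6305 and 5.34, 5.89 and 5.33 with DMSO, and the groups overlapped. These quantities were chosen after the values were seen, so no test is given.

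**Figure D3:**
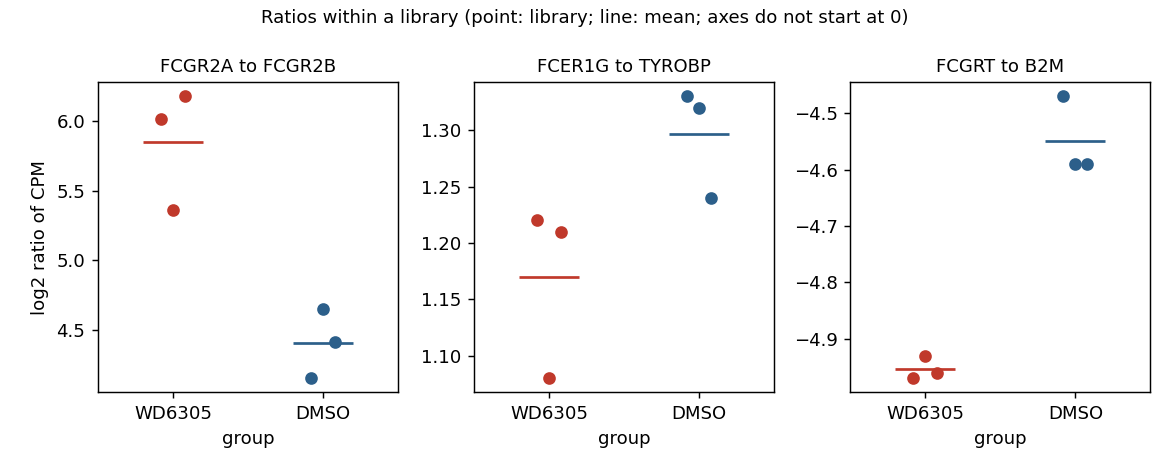
Log2 ratio of CPM within each library for FCGR2A to FCGR2B, FCER1G to TYROBP and FCGRT to B2M, WD6305 left and DMSO right, a point per library and a line at the mean. The groups are apart in each panel, and the difference is widest for FCGR2A to FCGR2B (1.45). That difference mostly follows FCGR2B, which had 22 to 103 counts per library.

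A list of other Fc receptors, Fc receptor-like genes and copies also held the partner chain B2M. Of its 20 genes 10 were tested, 3 rose, 1 fell and 6 did not pass (40% called, against 23.4% of all genes). FCER2, the low-affinity IgE receptor CD23, rose to 14.1 ± 0.931 CPM with WD6305, against 7.51 ± 0.412 CPM with DMSO (log2 fold change 0.91, edgeR adjusted p = 0.000355). TRIM21, a cytosolic receptor for antibody-coated virus, rose by 0.67 (edgeR adjusted p = 0.000343), and B2M was the third. FCMR, an IgM receptor, had 0.480 ± 0.119 CPM with WD6305 and 1.10 ± 0.359 CPM with DMSO. Its log2 fold change of -1.19 passed narrowly (edgeR adjusted p = 0.0472), and 10 alternatives ended that call. MS4A2, the beta chain of the high-affinity IgE receptor, had 1.17 ± 0.154 CPM with WD6305 and 0.621 ± 0.199 CPM with DMSO and did not pass (edgeR adjusted p = 0.0758).

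Among 4 ITAM or related adaptors, 3 rose and none fell (75% called, against 23.4% of all genes). They were TYROBP, HCST, which encodes DAP10, and FCER1G, which is also counted among the receptor genes above. HCST had a log2 fold change of 0.53 (edgeR adjusted p = 0.00456). CD247, the zeta chain of T and natural killer cells, stood at 0.287 ± 0.214 CPM with WD6305 and 0.419 ± 0.256 CPM with DMSO and did not pass. Of 13 other receptors that can signal through the gamma chain, 7 were tested, 2 rose and none fell (28.6% called, near the 23.4% of all genes). LILRA2, an activating leukocyte immunoglobulin-like receptor, rose to 75.8 ± 2.27 CPM with WD6305, against 36.6 ± 2.38 CPM with DMSO (log2 fold change 1.05, edgeR adjusted p = 4.7e-05). CLEC4D, a C-type lectin, rose by 1.61 (edgeR adjusted p = 0.00173). The other 5 tested had positive log2 fold changes of 0.26 to 1.74, at under 0.5 CPM in each group.

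All 32 genes on a list of signalling downstream of activating receptors were tested. Of these 13 rose, 3 fell and 16 did not pass, so 50.0% were called, against 23.4% of all genes, with a median log2 fold change of 0.19. The share called is larger among well-expressed genes. With a filter on mean FPKM of at least 1 in either group, 4305 of 11303 genes were called. A gene can pass this filter through the group where it is higher. Of the 4 PI3-kinase subunits in the list, PIK3CB rose by 0.52, PIK3R5 by 0.67 and PIK3R1 by 0.58, while PIK3CD had 171 CPM in each group (log2 fold change 0.00, edgeR adjusted p = 0.977; named after its values were seen). FGR, a Src-family kinase, rose by 0.84 (edgeR adjusted p = 0.000650), and the adaptor NCK1 rose by 0.52. The 3 that fell were PLCG1, a phospholipase (-0.48), LAT, a scaffold best known from T cells (-1.0), and VAV1, an exchange factor for Rac (-0.22). The call of LAT was lost without WD6305 2 or WD6305 3 (edgeR adjusted p up to 0.0602). Kinases that act first at the ITAM were named after their values were seen. SYK had 396 ± 7.19 CPM with WD6305 and 334 ± 9.55 CPM with DMSO (0.25, edgeR adjusted p = 0.00380), and LYN had a log2 fold change of 0.19 (edgeR adjusted p = 0.0177), a call lost when any single WD6305 library or DMSO 1 was left out (up to 0.0762).

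Of 14 genes on a list of inhibitory signalling, 4 rose, 1 fell and 9 did not pass (median log2 fold change 0.04). So 35.7% were called, against 23.4% of all genes and 4305 of 11303 with the filter on FPKM. A place on this list, or on the one before, does not settle which way a gene such as PTPRC acts. The adaptors DOK3 and DOK1 rose by 0.43 and 0.39, and the tyrosine phosphatases PTPN22 and PTPRC (CD45) rose by 0.53 and 0.48. CSK, which restrains Src-family kinases, had -0.17 (edgeR adjusted p = 0.0411), and 7 alternatives ended that call. INPP5D, which encodes SHIP1, the phosphatase that FCGR2B recruits, had 375, 393 and 395 CPM with WD6305 and 372, 403 and 366 CPM with DMSO (log2 fold change 0.03, 95% interval -0.09 to 0.14, edgeR adjusted p = 0.765). It was named after its values were seen.

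Of 34 tested actin and membrane factors of the phagocytic cup, 10 rose, 4 fell and 20 did not pass (median 0.06). So 41.2% were called, against 23.4% of all genes and 4305 of 11303 with the filter on FPKM. RHOG, a small GTPase, rose to 245 ± 6.21 CPM with WD6305, against 148 ± 9.73 CPM with DMSO (log2 fold change 0.73). MARCKS, a membrane-bound actin regulator, rose by 1.29, the actin-severing gene GSN by 1.13, and ARPC1B, a subunit of the ARP2/3 complex, by 0.43. PLD1 rose by 0.46. Those that fell were DNM2, the dynamin that pinches off vesicles (-0.25), WASF2 (-0.19), PFN1 (-0.19) and ACTR3 (-0.15), the last 3 named after their values were seen. The call was lost under 7 alternatives for PFN1 and under 8 for ACTR3 (edgeR adjusted p up to 0.146 and 0.161).

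All 20 transcription factors and signal components known to act on these receptor genes were tested. Of these 11 rose, 1 fell and 8 did not pass (median 0.20). The share called was 60.0%, against 23.4% of all genes and 4305 of 11303 with the filter on FPKM. CSF3R, the G-CSF receptor, rose by 1.15 and CEBPE, a factor of late granulocyte maturation, by 0.70. ELF1, an ETS factor, rose by 0.59. On the interferon-gamma side, which is known to induce FCGR1A, the receptor chain IFNGR1 rose by 0.36 and the kinases JAK1 and JAK2 by 0.35 and 0.72, while the interferon-induced factor IRF1 (-0.15, edgeR adjusted p = 0.233) did not pass. SPI1, which encodes the myeloid ETS factor PU.1, had 394, 385 and 397 CPM with WD6305 and 302, 346 and 309 CPM with DMSO (0.30, edgeR adjusted p = 0.00573). STAT3 had -0.16 (edgeR adjusted p = 0.0300), a call lost under 6 alternatives, among them the 4 libraries (0.0588). IRF1, SPI1 and STAT3 were named after their values were seen.

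**Figure D4:**
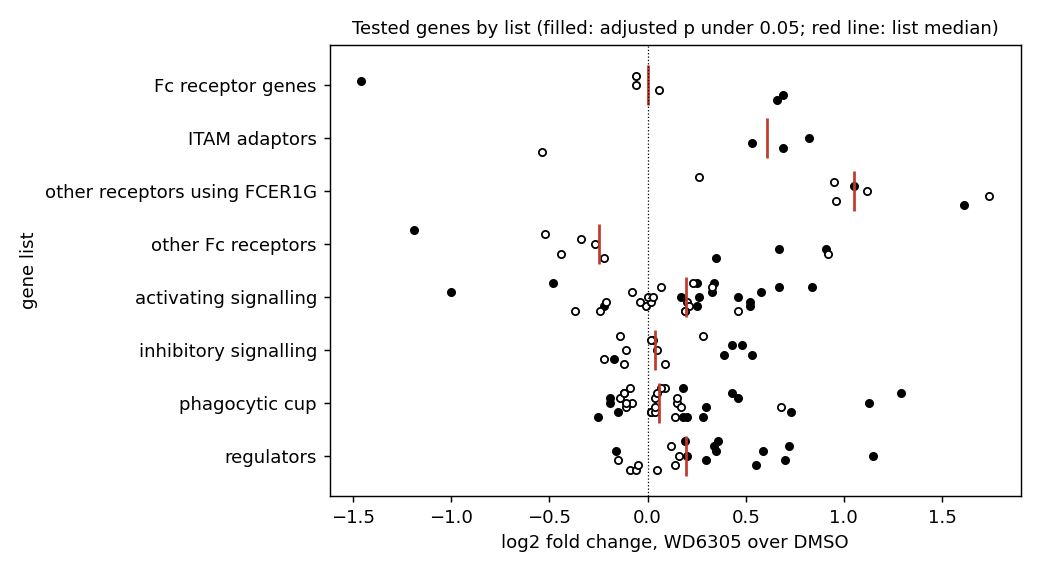
Log2 fold change of each tested gene, WD6305 over DMSO, by list, filled where the adjusted p was under 0.05, with a red line at each list's median. The Fc receptor genes spread from -1.46 to 0.69 about a median of 0.00, while the median of the ITAM adaptors was 0.61.

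The stretches before the start sites are shown for the IgG receptors because PU.1 and interferon-gamma are known to act on such promoters. They come from RefSeq (GRCh38.p14), which gave a window for 6 of the 7 genes. The 120 bases before the start are printed, all on the plus strand of chromosome 1, with capitals at matches to GAGGAA, the PU.1 core, or TTCNNNGAA, the interferon-gamma activated site, on either strand. The FCGR1A stretch is chr1:149782574-149782693, the FCGR2A stretch is chr1:161505337-161505456 and the FCGR2B stretch is chr1:161663023-161663142.
FCGR1A: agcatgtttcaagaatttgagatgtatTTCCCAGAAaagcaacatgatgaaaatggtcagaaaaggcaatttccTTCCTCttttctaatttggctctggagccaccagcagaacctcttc
FCGR2A: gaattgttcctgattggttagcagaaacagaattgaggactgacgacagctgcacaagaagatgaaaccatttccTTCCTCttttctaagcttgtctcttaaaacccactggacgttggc
FCGR2B: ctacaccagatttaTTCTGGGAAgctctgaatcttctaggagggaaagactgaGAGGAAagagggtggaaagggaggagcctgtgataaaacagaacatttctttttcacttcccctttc

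FCGR1A and FCGR2A, which did not pass the test, hold the same 20 bases around the GAGGAA match, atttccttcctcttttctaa, from -52 to -33 before the FCGR1A start and from -51 to -32 before the FCGR2A start. Of 35116 promoter windows in the RefSeq table, only these 2 hold that stretch in the 250 bases before the start. FCGR2B, which fell, has 2 matches to each motif in its 250 bases, counted at the start site that coincides with the table's. RefSeq gives FCGR2B another start site, at chr1:161647243, and neither motif matched in that window. In the windows of FCER1G and FCGRT neither motif matched. The FCGRT window belongs to a start site 5845 bases after the gene start given above, so it may not be the promoter in use. Over all windows 23.6% hold GAGGAA and 6.57% hold TTCNNNGAA, so the first is common. A match describes letters only, and these data hold no measure of binding.

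The genes nearest to each receptor were taken by the root mean square difference of centred log2 CPM over the 6 libraries, among genes with a mean FPKM of at least 1. Nearest to FCER1G were CTSD, THEMIS2 and CXCR4, at differences of 0.0262 to 0.0336 and log2 fold changes of 0.67, 0.66 and 0.64. Nearest to FCAR were FAM210B, CEBPE and ASAH1 (0.02 to 0.0340). Nearest to FCGR2B were KCNK13, DDN and PACSIN3, at the far larger differences of 0.192 to 0.206. PGPEP1, PTPMT1 and EMC3 were nearest to FCGR1A (0.0344 to 0.0449), CPSF4, MLLT6 and ARID3A to FCGR2A (0.0182 to 0.0326), and PHF5A, MRPL27 and RPL30 to FCGRT (0.0247 to 0.0290). None of these last 9 genes passed the edgeR test, and none was below an adjusted p of 0.488. Genes picked this way follow the receptor's own difference between the groups by construction, so their fold changes and calls are no separate result.

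**Figure D5:**
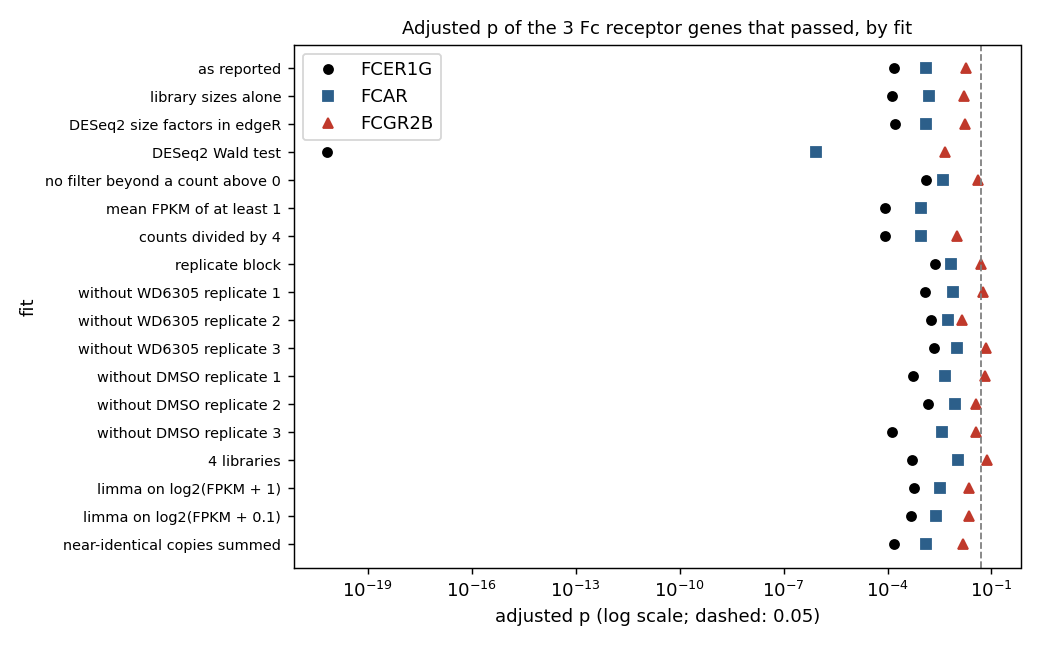
Adjusted p on a log axis for FCER1G, FCAR and FCGR2B in the reported fit and each alternative fit, with a dashed line at 0.05. FCER1G (at most 0.0024) and FCAR (at most 0.011) stay left of the line in every fit, while FCGR2B reaches 0.0766 and has no point where the filter on FPKM removed it.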

How the data were processed

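Each gene has an estimated count and an FPKM value per library in the authors' deposited table. The submitters' processing notes name the build GRCh38 and the tools HISAT2, StringTie, fastp and edgeR. Their versions, the annotation and the strand setting were not given in the sources used. Reads of overlapping or antisense genes may therefore be mixed. The deposited estimated counts are whole numbers. The FPKM values are scaled to length and depth by the authors, per the file headers, with 2 decimals. No other sample columns were present.

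Counts were filtered with filterByExpr, scaled by TMM and tested two-sided with the quasi-likelihood test of edgeR 4.0.16 (R 4.3.3), WD6305 over DMSO, with no replicate block and Benjamini-Hochberg adjustment over 18138 genes. SEs come from the F value. Alternatives used DESeq2 1.42.0 and limma 3.58.1. The fit was tested on simulated data. Libraries within a group differed beyond counting noise (chi-square per degree of freedom 3.77 to 10.4 on counts divided by 4), so none was taken as a duplicate.

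The genes, lists and tests were chosen with earlier results of these data known. Named genes were the 7 receptors, up to 6 called genes per pathway list by adjusted p, the copies and partners, and the 3 nearest genes per receptor. Of 188 list entries, 165 matched the table by symbol.
Some genes of the lists are not reported here.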

Additional observations from a re-analysis of the deposited data

How the results depend on the processing

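Across 17 alternative fits, FCER1G and FCAR kept their call and direction, at log2 fold changes of 0.63 to 0.74 and 0.49 to 0.71. The count of Fc receptor genes called lower was 0 with the filter on FPKM, which removes FCGR2B, and 0 in the 4 libraries other than DMSO 3 and WD6305 1. It was 0 to 1 when any single library was left out. The count of all genes called was 2756 to 4640 when a single library was left out. The cause was not tested. Uncalled log2 fold changes turned sign when a library was left out, with ranges of -0.04 (without WD6305 2) to 0.16 for FCGR1A, -0.12 to 0.01 (without WD6305 1) for FCGR2A and -0.11 to 0.04 (without DMSO 1) for FCGRT. FCGR2A was also 0.01 in the 4 libraries, and FCGR1A was -0.05 with copies summed, an alternative chosen after seeing the data. FCGR2B had -0.15 and -0.77 by limma on log2(FPKM + 1) and log2(FPKM + 0.1), scales that understate a low gene. With the replicate block, FCGR2B was at the threshold (edgeR adjusted p = 0.0496), the counts of receptor genes called were 2 higher and 1 lower, and 3204 genes were called in all. Same-numbered libraries did not deviate together (correlations of -0.181, 0.0782 and -0.146), so the numbers were not taken as pairs. Of the 31 called list genes named by rule, 29 kept the call in every alternative that gave a value, and FCMR and CSK did not. Of 11 called genes named after their values were seen, 5 kept it (SYK, VAV1, WASF2, SPI1 and TOMM40L) and 6 did not (LYN, LAT, PFN1, ACTR3, STAT3 and RCN3). In the 4 libraries the pathway lists moved by at most 2 calls in a direction. The call lower went to 0 among the other Fc receptors and among the regulators, and 2 genes of the inhibitory signalling list were called lower. The 3 log2 ratios kept their sign, but the FCGR2A to FCGR2B difference was 0.67, against 1.45, on FPKM with a pseudocount of 0.1. FCGR2B rests on 22 to 103 counts per library; with counts divided by 4 its SE was 0.33, against 0.36.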
